A study of Mus musculus with 4 samples.

Results

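The 7 genes described here, Tcf7, Lef1, Klf2, S1pr1, Il7r, Ccr7 and Satb1, are widely used to recognise naive and memory T cells, and they are 7 of the 32285 genes counted in single immune cells of liver metastases. They were picked by symbol, and their UMI counts (counts of tagged RNA molecules) were followed through T cell classes, NK cells, B cells and dendritic cells. The tumours were metastases of MC38, a mouse colon carcinoma line, in the livers of C57BL/6J mice, and the hosts of all 4 groups are labelled wild type. Tumour tissue was cut away from the surrounding liver and dissociated, and cells bearing CD45, the phosphatase of all leukocytes, were drawn out on magnetic beads before droplet sequencing of RNA 3′ ends. Diet and tumour line were crossed, with 1 library for each of the 4 groups: LFD_WT (low-fat diet, WT-MC38), LFD_shYap (low-fat diet, shYap-MC38), HFD_WT (high-fat diet, WT-MC38) and HFD_shYap (high-fat diet, shYap-MC38). The shYap line is a derivative in which Yap, a transcriptional coactivator of the Hippo pathway, was targeted by knockdown in the tumour cells, not in the mouse. The number of mice behind each library, their age and their sex are not given in the sources used here. No group had replicate libraries, so no p-value below measures a spread between replicates. The main tests rest on what a model with added effects of diet and line leaves over between the 4 libraries (1 residual degree of freedom).

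TCF-1 (encoded by Tcf7) and LEF-1 are related DNA-binding proteins that keep T cells able to renew themselves, and activated effector cells switch both off. KLF2 is a transcription factor of resting lymphocytes that turns on S1pr1, the receptor for sphingosine 1-phosphate by which a T cell leaves a tissue for blood or lymph. The receptor chain IL-7Rα keeps naive and memory cells alive, CCR7 guides cells toward lymph nodes, and SATB1 folds chromatin in developing and resting T cells.

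Several facts of the libraries bear on the values. The title of LFD_shYap gives a low-fat diet and its treatment field a high-fat diet. The title was used, so every diet value rests on that reading. After filtering, 11084, 9013, 10865 and 7281 cells remained in LFD_WT, LFD_shYap, HFD_WT and HFD_shYap, with a median of 6754 to 9949 UMIs per cell, and pairs of libraries shared 23 to 49 cell barcodes. Yap1 in the Ptprc-low cells, where tumour cells would lie, stood at 20.5, 18.3, 16.8 and 23 CPM (the gene's UMIs per 1000000 UMIs of the class) in that order. The library labelled HFD_shYap was thus above HFD_WT, which goes against its label, although these cells also include host cells, and every direction given for the tumour line follows the labels alone. Cells of HFD_shYap carried 31283 UMIs of Xist beside 9222 of Y-linked genes, whereas the other libraries held 2 to 7 Xist UMIs. Markers of mononuclear phagocytes, summed over 12 genes of which none was at 0, reached 6337 CPM in the T cells of LFD_WT against 2060 to 3846 CPM in the other libraries. Klf2 is abundant in those phagocytes (212 to 368 CPM). What phagocyte RNA could add was scaled by the markers C1qa, C1qb, C1qc, Lyz2 and Apoe. It is given beside the Klf2 results of the T lineage, NK-like and B-like cells. It is also given for CD8, conventional CD4 and regulatory T-like cells and the Klf3/Dapl1 sub-cluster described below. Klf2 was abundant in neutrophil-like cells (340 to 431 CPM) and Ptprc-low cells (332 to 510 CPM) too, and what those could add was not estimated.

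The 5 T classes together held 352, 527, 903 and 825 cells in the 4 libraries. CD8 T-like cells were the most numerous (119, 305, 516 and 450 cells), followed by a sub-cluster led by Klf3 and Dapl1 (104, 99, 82 and 75). Next came cycling T-like cells (60, 64, 120 and 74), conventional CD4 T-like cells (19, 24, 91 and 143) and regulatory T-like cells (50, 35, 94 and 83). UMIs of Cd8a or Cd8b1 were found in 90.6% of CD8 T-like cells. Conventional CD4 T-like cells had Cd4 or Cd40lg in 55.2% and Cd8a or Cd8b1 in 15.5%. Regulatory T-like cells had Foxp3 in 52.7% and Cd4 or Cd40lg in 38.5%, so these names are approximate. The Klf3/Dapl1 sub-cluster met no single T cell name: 93.9% of its 360 cells had a UMI of a Cd3 chain, 52.5% of Cd8a or Cd8b1, 3.33% of Cd4 or Cd40lg, 9.72% of Trdc (a γδ T cell receptor chain) and 16.7% of the NK receptors Ncr1 or Klrb1c. The 7 genes were withheld from the genes used for clustering. Nevertheless Tcf7, Lef1, S1pr1 and Satb1 stood among the 10 leading genes of that sub-cluster, which is a description of how these cells grouped and not a test.

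Tcf7 (chr11:52252371-52283014, minus strand of GRCm38) was highest in the Klf3/Dapl1 sub-cluster, at 139, 155, 130 and 197 CPM in LFD_WT, LFD_shYap, HFD_WT and HFD_shYap (156 ± 29.9, mean ± SD, n = 4 libraries). In conventional CD4 T-like cells the gene stood at 87.9, 102, 77.6 and 77.3 CPM, below the sub-cluster in each library. CD8 T-like cells held 19.1, 3.79, 8.05 and 7.96 CPM, with LFD_WT the highest, and regulatory T-like cells held 4 UMIs of Tcf7 in all 262 cells. NK-like cells (37.3, 72.2, 72.3 and 132 CPM) and mature dendritic-like cells (62.6, 34.4, 42.8 and 38.9 CPM) also carried Tcf7, and their ranges overlapped each other. B-like and the other dendritic classes had 1 to 11 UMIs, or none in plasmacytoid dendritic-like cells.

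Among CD8 T-like cells thinned to 2000 UMIs each, so that depth was equal, 25 of 1324 had a Tcf7 UMI. Of those 25 cells, 44.0% also had Satb1 (exact 95% interval 24.4 to 65.1%) against 11.2% of the cells without Tcf7, and 28.0% had Il7r (12.1 to 49.4%) against 6.00%. Pdcd1, the inhibitory receptor PD-1, was found in 28.0% of them (12.1 to 49.4%) against 48.0%, and the cytotoxic protease gene Gzmb in 12% (2.55 to 31.2%) against 35.0%. These are shares of cells pooled over 4 libraries, the intervals cover counting error only, and cells are not replicates.

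Lef1 (chr3:131110471-131224356, plus strand) followed the same leading class but spread differently below it. The Klf3/Dapl1 sub-cluster held 102, 129, 111 and 119 CPM (115 ± 11.4), above every other class in each library. Conventional CD4 T-like cells (43.9, 79.5, 23.9 and 51.1 CPM), regulatory T-like cells (75.4, 46.2, 35.9 and 34.0 CPM) and NK-like cells (48.1, 35.7, 27.4 and 34.3 CPM) overlapped, and CD8 T-like cells were lower at 13.6, 9.47, 5.70 and 5.82 CPM. Regulatory T-like cells therefore differ between these related factors, with Lef1 present and Tcf7 close to 0. The stretch before the RefSeq start of Lef1 (GRCm38.p6, chr3:131110047-131110296, plus strand) is shown because it holds a GC box, in capitals, which ends 25 bases before that start.
Lef1: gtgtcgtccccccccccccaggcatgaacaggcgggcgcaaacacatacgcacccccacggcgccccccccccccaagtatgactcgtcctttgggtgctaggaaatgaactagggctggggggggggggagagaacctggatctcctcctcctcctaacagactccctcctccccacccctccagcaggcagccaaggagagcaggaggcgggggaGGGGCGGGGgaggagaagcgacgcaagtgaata

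In B-like and all dendritic classes Lef1 had 0 to 16 UMIs per class. The letters searched in promoter windows were GGGGCGGGG (GC box), TAAATTTA (a core of the MEF2 motif), GTAAACA (FOXO) and CTTTGAA (TCF/LEF), on both strands. Of 13 RefSeq windows found for Tcf7, Lef1, Klf2, Il7r and Satb1, 5 held the GC box, which 10.4% of 32851 windows hold, and 0 held the FOXO or TCF/LEF letters, found in 3.17% and 4.46% of windows. Windows of 1 gene can overlap, the GC box can overlap itself, and such matches are descriptions of letters only.

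**Figure D1:**
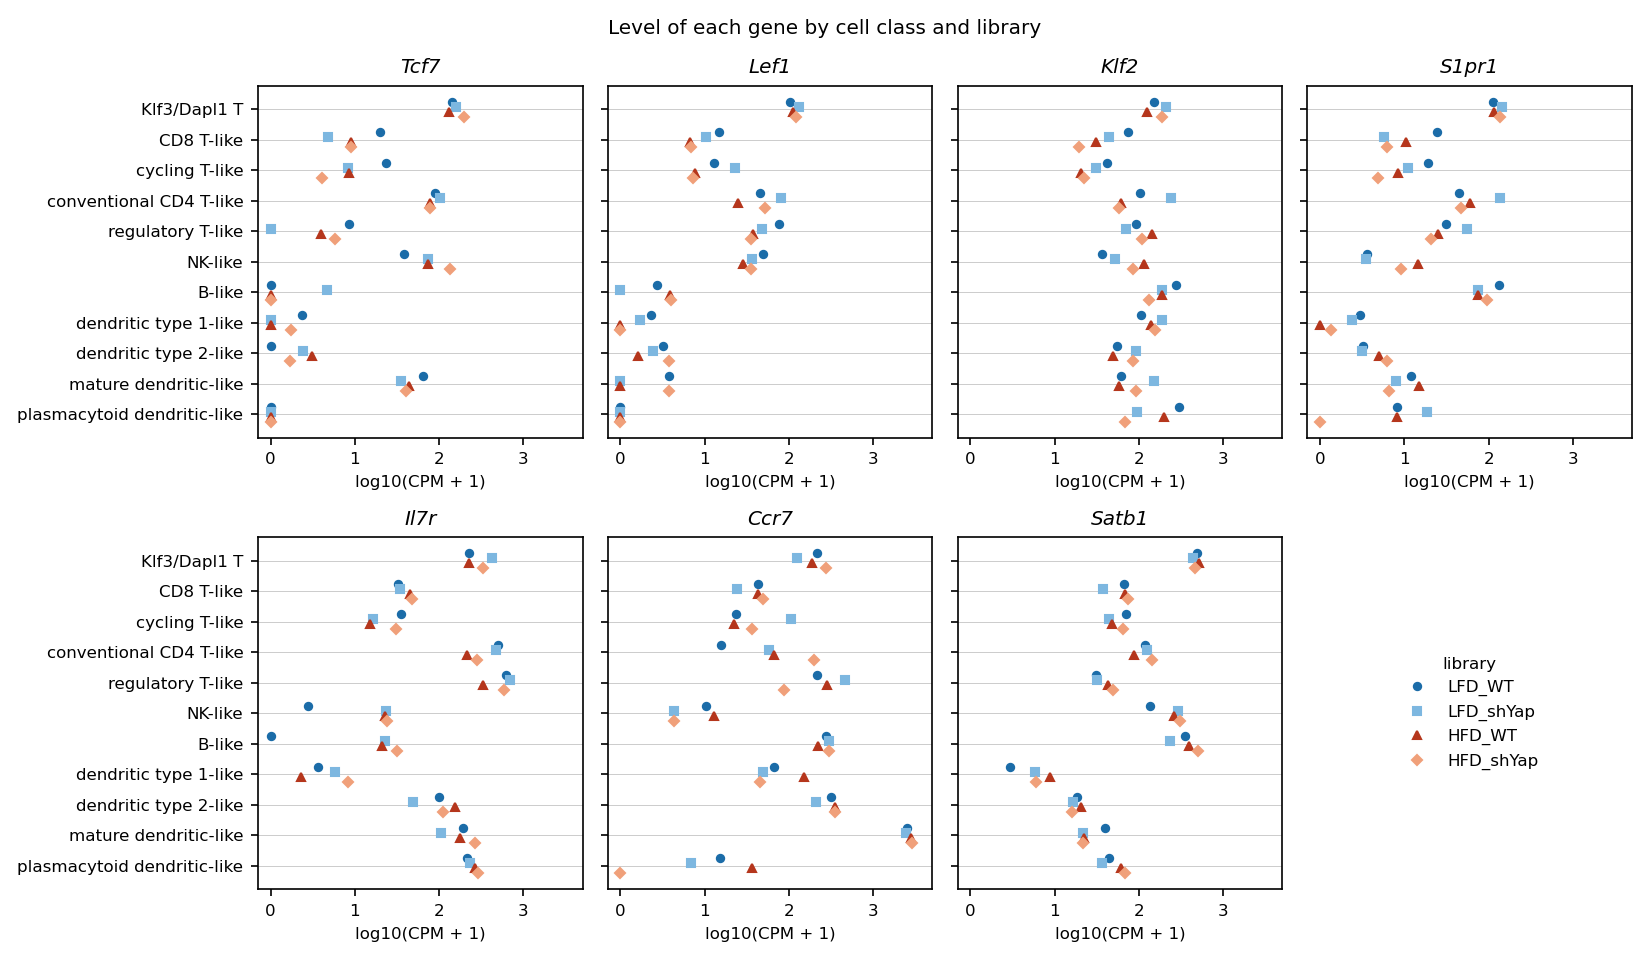
Level of each of the 7 genes (log10 of CPM + 1, horizontal axis) in 11 cell classes (vertical axis), with 1 point per library. Tcf7, Lef1, S1pr1 and Satb1 have their highest mean in the Klf3/Dapl1 T sub-cluster, whereas Il7r is highest in regulatory T-like cells, Klf2 in B-like cells and Ccr7 in mature dendritic-like cells, at 2417 to 2872 CPM. Levels are not corrected for phagocyte RNA.

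Klf2 was broadly present, and no neighbouring pair of the 11 classes had separate ranges. B-like cells held 277, 185, 185 and 130 CPM (194 ± 60.8) and the Klf3/Dapl1 sub-cluster 150, 209, 123 and 189 CPM (168 ± 38.5). Phagocyte RNA at the level of its markers would give B-like cells 69.7, 105, 88.6 and 86.7 CPM of Klf2. It would give the sub-cluster 22.1, 28.1, 17.6 and 13.6 CPM, and its part in the order of these classes was not tested. CD8 T-like cells held 73.5, 43.5, 29.8 and 18.4 CPM and cycling T-like cells 40.5, 30.3, 19.5 and 21.6 CPM, so that in both classes the low-fat libraries were above the high-fat ones. NK-like cells stood the other way, at 35.6, 50.7, 113 and 83.3 CPM, where phagocyte RNA would give 13.6, 15.6, 15.8 and 10.3 CPM. In regulatory T-like cells pooled over the libraries, Klf2 was at 75.2 CPM in cells with a Foxp3 UMI (Poisson interval 55.6 to 99.4). It was at 179 CPM in those without one (138 to 229), which also held fewer UMIs per cell (median 2662 against 3895). What phagocyte RNA could add to each of these sets was not estimated. The gene lies at chr8:72319033-72321656 (plus strand, GRCm38), and the sequence upstream (RefSeq, GRCm38.p6, chr8:72318812-72319032, plus strand) is shown because the diet test of Klf2 passed in both T cell sets in which a member was called. Capitals mark 2 GC boxes, which end 207 and 188 bases before the RefSeq start, and a MEF2 core that ends 110 bases before it and is found in 165 of 32851 windows (0.502%).
Klf2: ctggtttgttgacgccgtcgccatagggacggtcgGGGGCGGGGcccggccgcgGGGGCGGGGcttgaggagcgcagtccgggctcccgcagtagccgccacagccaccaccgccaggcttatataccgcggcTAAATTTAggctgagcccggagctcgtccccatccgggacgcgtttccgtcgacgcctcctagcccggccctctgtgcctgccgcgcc

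S1pr1 (chr3:115710433-115715072, minus strand, the exit receptor) was highest in the Klf3/Dapl1 sub-cluster at 111, 143, 114 and 136 CPM (126 ± 16.2), overlapping B-like cells (133, 72.7, 73.9 and 93.8 CPM). Conventional CD4 T-like cells held 43.9, 136, 59.7 and 45.5 CPM, with only 19 and 24 cells behind the low-fat values. CD8 T-like cells held 23.2, 4.73, 9.39 and 5.20 CPM, and LFD_WT stood apart from the other libraries. Within the CD8 cells S1pr1 lay mainly in sub-cluster 2, at 76.9, 46.4, 53.3 and 63.0 CPM, and was at 0 to 15.5 CPM in sub-clusters 3 and 10. In the Klf3/Dapl1 sub-cluster, 56.8% of thinned cells with an S1pr1 UMI had Il7r (44.7 to 68.2%) against 35.3% of those without.

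Il7r (chr15:9505788-9530176, minus strand) was highest in regulatory T-like cells (626, 693, 329 and 587 CPM), conventional CD4 T-like cells (498, 465, 212 and 280 CPM) and the Klf3/Dapl1 sub-cluster (225, 422, 225 and 331 CPM), whose ranges overlapped. CD8 T-like cells held 31.3, 33.1, 43.9 and 46.2 CPM, below the dendritic type 2-like cells in every library. Regulatory T cells are usually told by low surface IL-7Rα, so the class was split: its 138 cells with a Foxp3 UMI held 533 CPM of Il7r and its 124 cells without one 498 CPM, with overlapping Poisson intervals. Plasmacytoid dendritic-like cells (213 to 285 CPM) and mature dendritic-like cells (191, 103, 177 and 267 CPM) carried Il7r as well, while dendritic type 1-like cells had 1.32 to 7.25 CPM.

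Ccr7 (chr11:99144196-99155077, minus strand) marked mature dendritic-like cells above all: 2497, 2417, 2760 and 2872 CPM (2637 ± 215), separate from every other class. After thinning, 91.1, 93.8, 90.7 and 95% of those cells had a Ccr7 UMI. In T cells the gene was highest in regulatory T-like cells (211, 462, 284 and 87.4 CPM) and the Klf3/Dapl1 sub-cluster (212, 124, 184 and 272 CPM), and these overlapped dendritic type 2-like and B-like cells. Conventional CD4 T-like cells ranged from 14.6 CPM in LFD_WT through 56.8 and 65.6 to 199 CPM in HFD_shYap. Satb1 (chr17:51736187-51833290, minus strand) held 483, 432, 511 and 459 CPM in the Klf3/Dapl1 sub-cluster (471 ± 33.6), then 349, 232, 389 and 499 CPM in B-like cells and 133, 292, 262 and 304 CPM in NK-like cells. Conventional CD4 T-like cells (86.5 to 142 CPM) were separate from CD8 T-like cells (65.4, 36.4, 66.7 and 74.1 CPM).

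Over 41 sums of 1 class in 1 library (T, NK, B and dendritic classes of at least 20 cells), the Pearson correlation of log2(CPM + 1) between members was highest for S1pr1 with Satb1 (0.74) and Tcf7 with Lef1 (0.64). Among 7164 genes of at least 10 CPM, the closest to each member were Samd3 for Tcf7 (0.79), Sidt1 for Lef1 (0.91), Klf3 for Klf2 (0.73), Avl9 for S1pr1 (0.81), H2-K1 for Il7r (0.74), Stxbp3 for Ccr7 (0.83) and Jak1 for Satb1 (0.83). The sums share libraries and classes, so these are descriptions.

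Whether diet altered the genes in T cells was tested on the T lineage sums of 2162336 to 6153173 UMIs per library, with edgeR's quasi-likelihood test and Benjamini-Hochberg adjustment over all 10387 genes tested. All 7 members were tested, and 3 were lower under the high-fat diet against 0.501% of all genes called lower and 1.17% called in either direction. The members' median log2 fold change was -0.55, and that of all genes was 0.00.

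Klf2 stood at 85.1, 62.9, 43.5 and 42.1 CPM over the T lineage of LFD_WT, LFD_shYap, HFD_WT and HFD_shYap, both low-fat libraries above both high-fat ones. It fell by 0.84 on the log2 scale (SE 0.20, adjusted p = 0.00515). Phagocyte RNA at the level of its markers in these cells would give 19.1, 16.4, 16.1 and 11.6 CPM of Klf2, also highest in LFD_WT and lowest in HFD_shYap, and its part in the result was not tested. Lef1 was at 40.7, 28.7, 17.2 and 21.5 CPM, again without overlap, and fell by 0.88 (SE 0.23, adjusted p = 0.0159). S1pr1 was at 45.3, 25.8, 21.1 and 20.3 CPM and fell by 0.79 (SE 0.23, adjusted p = 0.0495), with LFD_WT far above the rest.

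The other members did not pass. Tcf7 was at 52.7, 23.2, 21.4 and 28.9 CPM (log2 fold change -0.55, adjusted p = 0.337), the high value lying in LFD_WT alone. Il7r was at 134, 102, 78.8 and 128 CPM (-0.28, adjusted p = 0.710), Ccr7 at 89.7, 73.1, 64.5 and 82.4 CPM (-0.21, adjusted p = 0.837) and Satb1 at 174, 82.7, 96.3 and 107 CPM (-0.31, adjusted p = 0.638). With a library left out, 1 diet has a single library. Without LFD_WT 0 members were called, and the values of Klf2, Lef1 and S1pr1 were -0.63, -0.64 and -0.39. Without HFD_WT (-0.90, -0.77 and -0.87) and without HFD_shYap (-0.79, -1.03 and -0.75) 0 were called too, at values close to those of all 4 libraries. Without LFD_shYap 4 were called, Tcf7 (-1.13) among them, with S1pr1 at -1.20. With the treatment field's diet, which sets LFD_WT against the other 3 libraries, 0 were called at larger values (Klf2 -1.004, adjusted p = 0.344, Lef1 -1.28, 0.167, and S1pr1 -1.14, 0.308). DESeq2 gave -0.84, -0.89 and -0.79 for these genes and called 0, with 3 at an unadjusted p under 0.05. With doublets kept, S1pr1 was not called (-0.78, adjusted p = 0.0842). When T sub-clusters that carry phagocyte RNA were added back, Klf2 was not called (-0.45, adjusted p = 0.374), while Lef1 and S1pr1 were. Out of 15 alternatives the call was lost in 13 for S1pr1, in 10 for Klf2 and in 8 for Lef1.

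The mix of T classes moved with the libraries. The Klf3/Dapl1 sub-cluster made up 29.5% of T lineage cells in LFD_WT (exact 95% interval 24.8 to 34.6%), 18.8% in LFD_shYap (15.5 to 22.4%), 9.08% in HFD_WT (7.29 to 11.1%) and 9.09% in HFD_shYap (7.22 to 11.3%). As a share of all kept cells it was nearly even, at 0.938, 1.10, 0.755 and 1.03%. With that sub-cluster left out, 0 members passed: Klf2 was at -0.73 (adjusted p = 0.0555), Lef1 at -0.68 (0.273), S1pr1 at -0.48 (0.594) and Tcf7 at 0.04 (0.987). With the same weights given to 4 T classes in each library (conventional CD4 T-like cells left out, as LFD_WT had 19), the Tcf7 ratio of HFD_WT over LFD_WT moved from 0.355 to 0.714 (counting interval 0.525 to 0.970). Lef1 moved from 0.399 to 0.752 (0.539 to 1.05), S1pr1 from 0.421 to 0.731 (0.532 to 1.003) and Satb1 from 0.553 to 1.03 (0.883 to 1.19). Klf2 moved from 0.542 to 0.672 (0.539 to 0.839), and to 0.892 with equal weights for the classes. In HFD_shYap over LFD_shYap the ratio at the same weights was 0.785 for Klf2 (0.642 to 0.960) and 1.33 for Tcf7 (0.995 to 1.78).

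**Figure D2:**
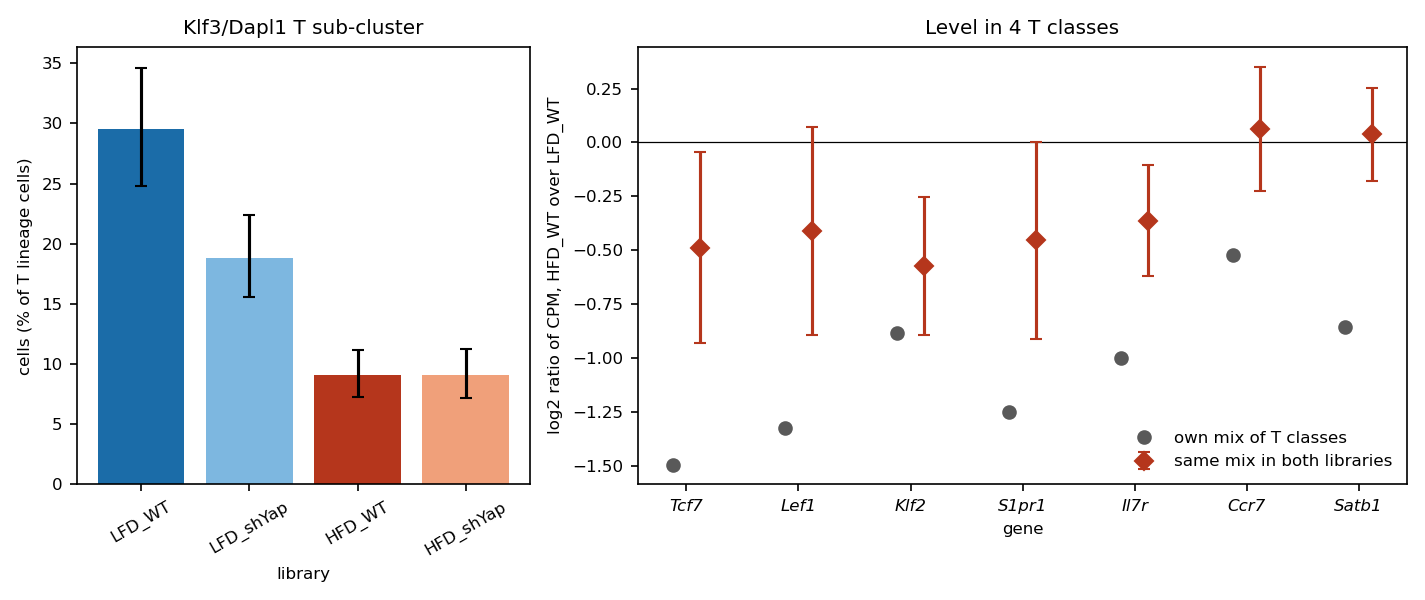
Left, share of T lineage cells in the Klf3/Dapl1 T sub-cluster in each library, with exact 95% binomial intervals. Right, log2 ratio of CPM of each gene in HFD_WT over LFD_WT in 4 T classes, with each library's own mix of classes (circles) and with 1 mix for both libraries (diamonds, with 95% counting intervals), where 5 of 7 genes remain below 0 and Ccr7 and Satb1 lie near it.

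In CD8 T-like cells 1 of 7 members passed for diet, against 0.645% of 9298 genes called lower and 1.15% in all. Klf2 fell by 1.33 on the log2 scale (SE 0.24, adjusted p = 2.88e-05, edgeR), and the ratio of high-fat to low-fat was 0.406 in the WT pair (0.286 to 0.580) and 0.422 in the shYap pair (0.299 to 0.590). The order of the libraries was the same in the 3 CD8 sub-clusters: 182, 116, 65.2 and 43.6 CPM in sub-cluster 2, 49.1, 41.9, 26.4 and 19.3 CPM in sub-cluster 3, and 44.0, 32.5, 21.8 and 16 CPM in sub-cluster 10. Phagocyte RNA at the level of its markers in these cells would give 17.7, 16.8, 16.5 and 10.5 CPM of Klf2, against measured levels of 73.5, 43.5, 29.8 and 18.4 CPM, and its part in the result was not tested. Klf2 was not called without LFD_WT (-0.92, adjusted p = 0.624), without HFD_shYap (-0.90, 0.394) or under the treatment field's diet (-1.31, 0.250). Lef1 (-0.99, adjusted p = 0.392), S1pr1 (-0.74, 0.602), Tcf7 (-0.20, 0.940), Il7r (0.42, 0.619), Ccr7 (0.53, 0.453) and Satb1 (0.51, 0.391) did not pass.

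Klf2 in NK-like cells lay the other way, with high-fat over low-fat ratios of 3.19 (2.29 to 4.39) in the WT pair and 1.64 (1.11 to 2.43) in the shYap pair. The difference between the diet effects in NK-like and CD8 T-like cells, a comparison chosen after these values were seen, was 2.48 on the log2 scale (SE 0.34, adjusted p = 2.57e-05, edgeR), with 0.196% of 8169 genes called. Both classes came from the same 4 libraries, and the comparison was not run with a library left out. With the treatment field's diet, which leaves LFD_WT as the only low-fat library, the difference was 3.02. NK-like cells differed in makeup, since 143 of the 301 in LFD_WT formed a sub-cluster that held 7 to 12 cells in each other library. Within the larger NK sub-cluster, which all libraries shared, Klf2 was at 39.4, 48.4, 131 and 96.7 CPM, and the high-fat libraries were again the higher ones. Regulatory T-like cells held 90.4, 69.3, 144 and 107 CPM, and their difference from CD8 T-like cells (1.93, adjusted p = 0.250) did not pass, with 0.0363% of genes called. Phagocyte RNA at the level of its markers would give regulatory T-like cells 42.9, 29.6, 27.4 and 18.5 CPM of Klf2, and its part was not tested.

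**Figure D3:**
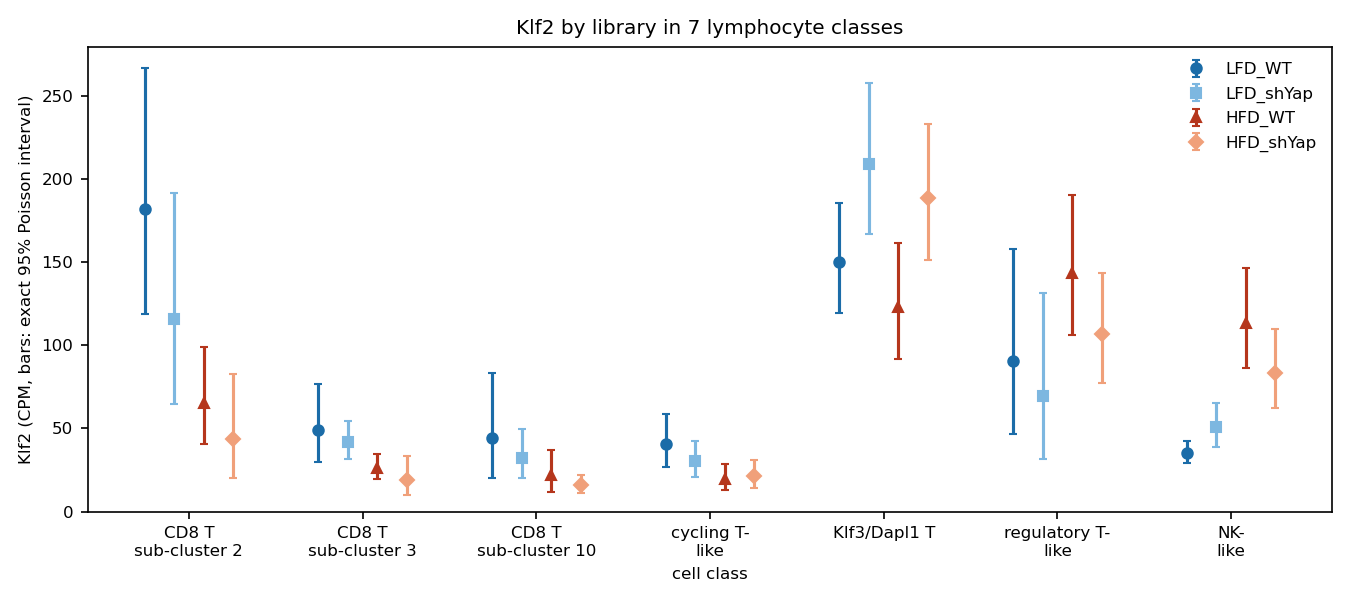
Klf2 level (CPM, vertical axis, exact 95% Poisson intervals) by library in 7 lymphocyte classes. In each CD8 T sub-cluster the LFD_WT point is highest and the HFD_shYap point lowest (182 to 43.6 CPM in sub-cluster 2), whereas in NK-like cells both high-fat libraries (113 and 83.3 CPM) lie above both low-fat ones.

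For the tumour line, 0 of 7 members passed in the T lineage, where edgeR called 1.09% of genes. At an unadjusted p under 0.05 there were 2, S1pr1 (-0.45) and Satb1 (-0.48), and DESeq2 called 0 members. In CD8 T-like cells 1 of 7 passed, against 0.699% of genes called lower and 0.903% in all: S1pr1 fell by 1.49 in the libraries labelled shYap (SE 0.42, adjusted p = 0.0466). Its value in LFD_WT (23.2 CPM, against 4.73 to 9.39 CPM elsewhere) stood apart, and without LFD_WT the value was -0.94 (adjusted p = 0.9999). It was -1.48 without LFD_shYap (0.287), -1.50 without HFD_shYap (0.691) and -2.24 without HFD_WT (0.0364), the last still called. In CD8 sub-cluster 2, where S1pr1 mainly lay, the values given above were lower in LFD_shYap than in LFD_WT but higher in HFD_shYap than in HFD_WT. The part of the sub-cluster mix in the S1pr1 result was not tested. Klf2 was not called for line in CD8 T-like cells (-0.76, adjusted p = 0.109). Its value was -0.0091 without LFD_WT and -0.050 without HFD_shYap, and it was called without LFD_shYap (-1.40, 0.00771) and without HFD_WT (-1.31, 0.0310).

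Conventional CD4 T-like cells gave 0 of 7 calls for either factor in edgeR, with 0.666% of 3005 genes called for diet and 0.366% for line, and with 68283 to 724572 UMIs per sum they were the thinnest class tested. At an unadjusted p under 0.05, diet had 3 members, namely Klf2 (102, 238, 59.7 and 56.6 CPM, -1.67, adjusted p = 0.0990), Il7r (-1.03, 0.149) and Ccr7 (1.81, 0.225). Line had 2, Lef1 (1.05, 0.811) and Ccr7 (1.66, 0.173). Phagocyte RNA at the level of its markers would give these cells 31.4, 30.3, 29.4 and 20.3 CPM of Klf2, and its part was not tested. In dendritic cells 6 members were tested, as Lef1 was too low, and edgeR called 0 for either factor, with 0.0192% of 10408 genes called for diet and 0% for line. At an unadjusted p under 0.05 in edgeR, diet had 2 members there, Il7r (0.78) and Ccr7 (0.68). Line had 3, Klf2 (0.55), Il7r (-0.58) and Ccr7 (-0.45). The mix of dendritic classes differed between LFD_WT, LFD_shYap, HFD_WT and HFD_shYap. Mature dendritic-like cells, at 2417 to 2872 CPM of Ccr7, numbered 65, 21, 83 and 75. Dendritic type 2-like cells numbered 223, 159, 325 and 216, and type 1-like cells 141, 112, 167 and 161. The part of this mix in the values was not tested.

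**Figure D4:**
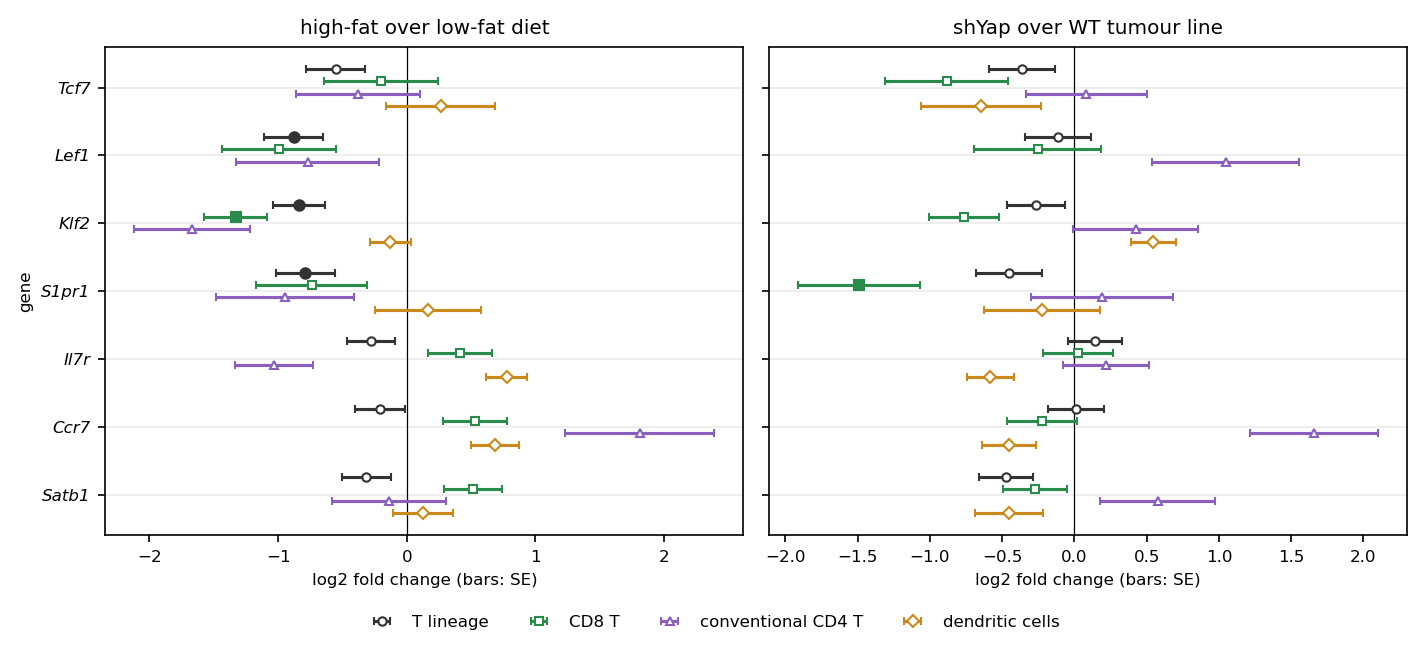
Log2 fold change of each gene (horizontal axis, bars are SE) for high-fat over low-fat diet and for the shYap over the WT tumour line, in 4 groups of cells. Filled points passed an adjusted p of 0.05 in edgeR, and these are Lef1, Klf2 and S1pr1 for diet in the T lineage, Klf2 for diet in CD8 T and S1pr1 for line in CD8 T.

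Other genes of the same states and pathways are given by list, and these lists were drawn up with results of these data known. Of 24 genes of quiescence and the naive state, 2 fell under the high-fat diet in the T lineage and 22 did not pass, with a median of -0.22. Txk, a T cell kinase, was at 133, 96.8, 74.2 and 66.0 CPM (-0.76, adjusted p = 0.00855, edgeR), with both low-fat libraries above both high-fat ones. Btg1, Ets1 and Slfn2, the most abundant of that list, were at -0.01, 0.38 and 0.08 and did not pass. Over all genes edgeR called 0.674% higher. Of 8 tested genes of tissue residence, 2 rose and 0 fell, with a median of 0.54: Rgs1, a brake on chemokine signalling, from 268 and 344 to 542 and 490 CPM (0.69, adjusted p = 0.00686), and the collagen-binding integrin gene Itga1 from 7.86 and 8.09 to 27.7 and 19.7 CPM (1.44, adjusted p = 6.85e-05). Rgs2 (0.57, adjusted p = 0.0640) and Cxcr6 (0.51, 0.223) did not pass.

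Of 15 effector genes, 2 rose, Pdcd1 (0.61, adjusted p = 0.0462, edgeR), which was called in none of its 15 alternatives, and Klrg1 (1.52, 0.00319), and Gzma fell (-1.39, 2.17e-10), while Gzmb (0.19) and Id2 (0.07) did not pass, with a median of 0.34. Of 15 tested partners and targets of TCF-1, Runx1 rose (0.9995, adjusted p = 0.00199) and Xcl1, a chemokine gene, fell (-0.71, 0.00995), with a median of 0.04. None of 7 tested genes of the sphingosine 1-phosphate axis (median 0.19) or of 12 of the interleukin 7 axis (median 0.07) was called by edgeR, and of 7 genes of the CCR7 axis Ccr2 rose (1.07, adjusted p = 0.00273, median 0.15). Of 14 genes of tissue dissociation, Hspa1b rose (0.81) and Jun fell (-0.76), with a median of -0.01, and their part in the members' values was not tested. With a library left out, Pdcd1 ranged from 0.22 (without LFD_WT) to 1.06 (without LFD_shYap), Xcl1 from -1.31 (without LFD_shYap) to -0.033 (without LFD_WT), Runx1 from 0.62 (without LFD_shYap) to 1.38 (without LFD_WT), Ccr2 from 0.45 (without LFD_shYap) to 1.73 (without LFD_WT) and Gzma from -1.90 (without LFD_WT) to -0.80 (without LFD_shYap). Out of 15 alternatives for diet the call was lost in 13 for Jun, in 11 for Xcl1 and Rgs1, in 10 for Runx1, Ccr2 and Txk, in 9 for Hspa1b, in 8 for Klrg1, in 6 for Gzma and in 5 for Itga1. For the tumour line, Igfbp4 (-1.12, adjusted p = 0.00538) and Xcl1 (-0.96, 4.37e-05) fell and Gzma rose (0.79, 0.00424), and no other gene of these lists was called by edgeR. For line, Igfbp4 lost its call in 10 of 15 alternatives and Xcl1 in 5, and Xcl1 ranged from -1.46 to -0.44 (without LFD_WT) with a library left out. Gzma was highest in LFD_shYap (129, 274, 63.1 and 91.8 CPM), and without that library its value was -0.11.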

How the data were processed

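The values deposited by the authors are raw, unnormalized UMI counts for each gene in each barcode. Version 6.0.0 of Cell Ranger stands in the file headers, while 4.0.0 is listed, beside STAR 2.5.1 and mm10, per the submitters' processing notes. Libraries held 106268471 to 144936859 UMIs. Barcodes with at least 200 genes and under 15% mitochondrial UMIs were kept. Doublets were scored per library, and since the automatic threshold called 0 to 2 per library, about the expected number (0.8% per 1000 barcodes) was removed by rank. This left 38243 of 50062 barcodes. Cells were clustered with scanpy 1.11.5 on 2000 variable genes without the 7 members, with 30 components, 15 neighbours and Leiden resolution 1, and named by marker lists. T sub-clusters that carry phagocyte RNA were left out of the T lineage.

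UMI counts were summed per class and library. CPM are these sums scaled to a total of 1000000, with exact Poisson intervals. Shares have exact Clopper-Pearson intervals, after thinning to 2000 UMIs per cell where stated, and all intervals cover counting error only. Diet and tumour line were tested with edgeR 4.0.16 (R 4.3.3) by quasi-likelihood (filterByExpr, TMM, additive model, 1 residual degree of freedom), with adjusted p under 0.05 as the call, and with DESeq2 1.42.0 as an alternative. The test was checked on simulated counts. Ratios between single libraries have counting intervals and no test. No paired structure exists in the labels.

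The members and gene lists were chosen with earlier results of these data known. The text names every member, every list gene called in the T lineage (but for 1 not reported here), the 3 most abundant genes of each list for the lists where this adds to the calls, and the gene most correlated with each member. Promoter windows are RefSeq's for GRCm38.p6, and gene positions are from the GENCODE annotation of GRCm38. S1pr1 and Ccr7 promoters were not used here.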

Additional observations from a re-analysis of the deposited data

Results flagged for a closer look

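The diet effect on Klf2 differed between NK-like and CD8 T-like cells by 2.48 on the log2 scale (edgeR, adjusted p = 2.57e-05). That test was made after the values were seen and was not run with a library left out. Il7r over the T lineage was lower in HFD_WT than in LFD_WT (ratio 0.589) and higher in HFD_shYap than in LFD_shYap (1.25), so the ratios lay on opposite sides of 1. Satb1 did likewise, with ratios of 0.553 and 1.29. Class levels were also averaged by cell number, with conventional CD4 T-like cells left out. Both ratios were then below 1 for Il7r (0.500 and 0.923) and for Satb1 (0.553 and 0.977). Both the weighting and the cells differ there from the T lineage sums, and the part of each was not tested. With 1 library per combination the differences for Il7r and Satb1 were not tested, and for both genes LFD_WT was the highest library in the T lineage sums.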

How the results depend on the processing

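No paired analysis was possible because each combination of diet and line has 1 library and the labels give no replicate numbers that pair them. Members called for diet in the T lineage (3) became 0 with the treatment field's diet, 0 with DESeq2, 0 with diet as the only term, 1 with T cells gated on UMIs, 1 with the Xist-bearing cells of HFD_shYap, 1 with its Y-linked cells and 0 without the Klf3/Dapl1 sub-cluster, an alternative added after seeing the data, and leaving out each library gave 0 to 4. For diet in CD8 T (1) the treatment field gave 0 and left-out libraries 0 to 1. For line in CD8 T (1) the treatment field gave 0, keeping doublets gave 0 and left-out libraries 0 to 2. For diet or line in conventional CD4 T left-out libraries gave 0 to 1, and in dendritic cells 0 to 2, with 1 (Il7r) for diet when doublets were kept. Genes called for diet in the T lineage (122) became 30 with the treatment field, 13 with DESeq2, 1 with diet alone, 227 with gating, 38 after thinning, 39 with Xist-bearing cells, 80 with Y-linked cells and 6 to 93 with a library left out.

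Some log2 fold changes for diet in the T lineage turned sign. With a library left out, Tcf7 ranged from -1.13 to 0.047 (without LFD_WT), Il7r from -0.61 to 0.025 (without HFD_WT) and Satb1 from -0.85 to 0.22 (without LFD_WT). Without the Klf3/Dapl1 sub-cluster they were 0.038, 0.060 and 0.38, and Ccr7 was 0.032. With gating Il7r was 0.18 and Ccr7 0.41, and with Y-linked cells Ccr7 was 0.069. In CD8 T, Tcf7 ranged from -1.30 to 1.01 and S1pr1 from -1.72 to 0.55, both positive without LFD_WT, and Ccr7 was -0.0042 with the treatment field. Gzma for line in the T lineage ranged from -0.11 (without LFD_shYap) to 1.57, and was -0.66 gated, -0.023 with Y-linked cells and -0.017 with T cells carrying phagocyte RNA. With doublets kept, plasmacytoid dendritic-like cells held 0.787 CPM of Tcf7 and 2.39 CPM of Lef1, and B-like cells 232 CPM of Ccr7. With equal class weights the fixed-mix ratio of Klf2 in HFD_WT over LFD_WT was 0.892, and that of Ccr7 was 0.620 in HFD_shYap over LFD_shYap and 1.46 in LFD_shYap over LFD_WT. After thinning to 1000 UMIs, 28.3% of S1pr1-positive Klf3/Dapl1 cells had Il7r. That depth lowers detection of Il7r in S1pr1-negative cells as well, so this value alone does not compare the 2 sets of cells. The causes were not tested. The fall of Klf2 with diet kept its direction in each alternative run in the T lineage and CD8 T, and 1 library per group limits every result.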

Other observations

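Outside the lymphocytes, Il7r was higher in mononuclear phagocytes of both high-fat libraries, at 9.65 and 8.16 CPM in LFD_WT and LFD_shYap against 38.8 and 29.3 CPM in HFD_WT and HFD_shYap. In the same order, 6.29, 6.66, 21.2 and 17.8% of phagocytes had an Il7r UMI, and 1.61, 1.39, 6.77 and 5.11% did after thinning to 2000 UMIs. These are values of 1 library per group and were not tested.

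In HFD_shYap, 293 of 825 T lineage cells had Xist and no Y-linked UMIs and 289 had Y-linked and no Xist UMIs. Klf2 stood at 28.2 CPM in the first set (Poisson interval 21.4 to 36.5) and 53.6 CPM in the second (45.0 to 63.4), and Ccr7 at 43.3 (34.8 to 53.3) and 123 CPM (110.0 to 138). In the CD8 T-like cells of that library the order for Klf2 was the other way, at 24.1 and 17.2 CPM with overlapping intervals. Il7r stood at 92.8 and 26.3 CPM there. The sets differed in makeup. The Klf3/Dapl1 sub-cluster gave 16 and 34 of their cells, with Klf2 at 92.8 and 275 CPM. Conventional CD4 T-like cells gave 67 and 38, with Klf2 at 40.2 and 73.2 CPM. The part of this mix was not tested.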
